A study of Mus musculus with 12 samples.

Results

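The genes described here are 5 secretory genes that mark or accompany Paneth cells: the lysozyme gene Lyz1, the alpha-defensin gene Defa22, the mucosal pentraxin genes Mptx1 and Mptx2, and the intelectin gene Itln1. They were taken by symbol, 5 of the 52636 genes in the deposited tables, and all 5 were among the 15526 genes tested, whose mean FPKM was 0.5 or more. FPKM counts fragments for each kilobase of a gene after each library is scaled by a factor of its own. They were chosen by measured values, namely levels that differ strongly between ages in these libraries, and the difference between tissues was in view as well. Values by tissue and age are therefore given as a description, with no test, and the comparison of genotypes is tested.

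The libraries came from the colon of C57BL/6 mice, all of which carried ApcMin/+, a heterozygous truncating mutation of the tumor suppressor Apc that gives rise to intestinal adenomas. The genotypes were ApcMin/+; Cul4bWT (WT) and ApcMin/+; Cul4bΔIEC (KO), in which Cul4b, the gene of a ubiquitin ligase scaffold, is deleted in the epithelium. The labels do not name the Cre driver, and no group without ApcMin/+ was analysed here. Titles mark each library T or N, read as adenoma and adjacent normal colon. There was 1 library for each genotype, tissue and age (3, 4 and 5 months), hence 4 groups of 3 and 12 libraries. The labels do not say that they came from separate mice, so p-values here reflect the spread among libraries, which may be technical, and in bulk tissue fewer cells of a type and less RNA per cell cannot be told apart. Reads in genes were 18263611 to 25321931 per library. The library size implied by the deposited FPKM was 0.720 to 0.915 times the reads in genes in N and 1.13 to 1.30 times in T. The deposited scale is thus not plain library size, and it lowers T against N. Levels of Cul4b ranged from 11.5 to 15.0 FPKM in normal WT colon, 0.920 to 2.99 FPKM in normal KO colon, 7.88 to 12.2 FPKM in WT adenoma and 1.46 to 2.27 FPKM in KO adenoma. Libraries of 3 and 4 months stand in 1 table and those of 5 months in another, each on its own scale.

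Paneth cells sit at the base of small intestinal crypts, next to the stem cells, and release granules of antimicrobial proteins. Wnt signaling, which Apc restrains, drives their maturation, and the healthy mouse colon has few or none of them; intestinal adenomas of Apc mutant mice can hold Paneth-like cells. Lysozyme cuts the cell wall of bacteria and alpha-defensins are small peptides that break bacterial membranes. Intelectin is a lectin that binds microbial sugars, and the mucosal pentraxins belong to a family of pattern-binding proteins. Lyz2, the neighbor and close relative of Lyz1, is the lysozyme gene of macrophages and neutrophils.

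The sequences below are shown because close relatives share much of them, which decides how far a count can be given to 1 gene. In mm10, Lyz1 (ENSMUSG00000069515) lies on chromosome 10 from 117287797 to 117292868 (minus strand) and Defa22 (ENSMUSG00000074443) on chromosome 8 from 21162277 to 21163249 (plus strand). The other 3 genes are on chromosome 1: Mptx1 (ENSMUSG00000026531) from 174330518 to 174332873 (plus strand), Mptx2 (ENSMUSG00000079180) from 173274382 to 173277777 (minus strand) and Itln1 (ENSMUSG00000038209) from 171518122 to 171535294 (minus strand). Bases 163 to 282 of the coding sequences of Defa22 and its closest relative Defa21, the end that holds the mature peptide, differed at 1 base. Bases 1 to 120 of the Mptx1 and Mptx2 coding sequences also differed at 1 base, and those of Lyz1 and Lyz2 at 11. Sequences run 5′ to 3′ on the coding strand, from GENCODE M21 transcripts, and capitals mark bases that differ within a pair.
Defa22: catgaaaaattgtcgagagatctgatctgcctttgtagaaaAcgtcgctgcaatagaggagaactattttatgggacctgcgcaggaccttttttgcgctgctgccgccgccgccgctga
Defa21: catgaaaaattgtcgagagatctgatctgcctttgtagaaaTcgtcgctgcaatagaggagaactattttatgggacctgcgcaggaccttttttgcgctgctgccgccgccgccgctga
Mptx1: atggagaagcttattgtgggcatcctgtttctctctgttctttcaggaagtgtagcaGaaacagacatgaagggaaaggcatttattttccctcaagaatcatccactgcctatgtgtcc
Mptx2: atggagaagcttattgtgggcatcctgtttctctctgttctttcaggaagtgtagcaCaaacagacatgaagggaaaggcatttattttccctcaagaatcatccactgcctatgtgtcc
Lyz1: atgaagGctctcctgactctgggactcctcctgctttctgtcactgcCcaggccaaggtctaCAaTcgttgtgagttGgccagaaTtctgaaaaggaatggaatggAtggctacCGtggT
Lyz2: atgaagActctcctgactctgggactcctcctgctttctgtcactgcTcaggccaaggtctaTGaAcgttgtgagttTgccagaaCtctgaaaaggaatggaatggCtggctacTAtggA

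Over whole coding sequences, Defa22 and Defa21 were 99.3% identical, Lyz1 and Lyz2 95.1%, and Mptx1 and Mptx2 92.0%. Over 21 alpha-defensin relatives, identity to Defa22 was 55.8% to 99.3% (median 82.9%). Of the windows of 50 bases along the Defa22 transcript, 74.9% also occurred in transcripts of other genes, 9 in number, and the share was 17.9% for Mptx1, 18.0% for Mptx2, 16.1% for Lyz1 and 1.01% for Itln1. Of the windows of 100 bases along the Defa22 transcript, 40.3% were shared, all with Defa21. The share was 3.29% for Mptx1 and 3.31% for Mptx2 (each in the other), 2.06% for Lyz1 (in Lyz2) and 0 for Itln1. With windows of 150 bases it was 10.7% for Defa22 and 0 for the other 4. Neither the read length nor the treatment of reads that match several genes was stated in the labels. Counts of Defa22 are therefore uncertain against Defa21, and those of Lyz1 and both pentraxin genes to a degree that depends on read length.

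Upstream sequence is shown for Defa22 and the pentraxin pair, because the defensin promoter holds the letters that the Wnt effectors TCF and LEF bind and the pair shows how near relatives differ. The windows are from RefSeq (GRCm38.p6) and end at the gene start; the Mptx2 window is 229 bases long, since its last 21 bases lie inside the gene as deposited, and the other windows hold 250 bases. Capitals mark matches, on either strand, to AACAAAG or to the versions of it that start with AT, TA or TT in place of AA (ATCAAAG as well as TACAAAG as well as TTCAAAG); these matches do not overlap. The regions are chr8:21162027-21162276 (plus strand), chr1:174330268-174330517 (plus strand) and chr1:173277778-173278006 (minus strand).
Defa22: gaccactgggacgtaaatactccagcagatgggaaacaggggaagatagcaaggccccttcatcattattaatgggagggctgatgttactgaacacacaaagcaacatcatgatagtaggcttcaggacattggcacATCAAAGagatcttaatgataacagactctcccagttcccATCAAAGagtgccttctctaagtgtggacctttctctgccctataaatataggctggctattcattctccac
Mptx1: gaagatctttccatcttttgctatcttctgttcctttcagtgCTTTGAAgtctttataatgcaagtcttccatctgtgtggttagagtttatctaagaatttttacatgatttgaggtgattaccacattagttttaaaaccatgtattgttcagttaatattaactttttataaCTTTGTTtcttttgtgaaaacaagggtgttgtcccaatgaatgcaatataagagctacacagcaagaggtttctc
Mptx2: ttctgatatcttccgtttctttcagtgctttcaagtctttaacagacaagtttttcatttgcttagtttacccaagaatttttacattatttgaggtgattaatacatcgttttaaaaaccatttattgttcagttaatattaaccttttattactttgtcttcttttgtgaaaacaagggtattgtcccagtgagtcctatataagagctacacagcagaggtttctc

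Defa22 held 2 matches, both ATCAAAG on the plus strand, whose first bases lie 112 and 72 bases before the start. Mptx1 held 2 on the minus strand (TTCAAAG and AACAAAG), 208 and 75 bases before the start. Mptx2, Lyz1 and Itln1 held 0. Of all 32851 upstream windows of 250 bases, 14.8% held at least 1 match and 1.43% held 2 or more, against 13 and 9 of the 16 alpha-defensin windows. These 16 include near copies: identity to the Defa22 window was 100% for Defa21 and 98% for Defa20. They are therefore not independent windows. Over the full 250 bases before the RefSeq starts, which for Mptx2 and Lyz2 include bases inside the deposited gene models, identity was 100% for Defa22 and Defa21, 74.0% for Mptx1 and Mptx2 and 78.8% for Lyz1 and Lyz2. A match is a run of letters, not a shown binding site.

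Lyz1 was the most abundant of the 5 genes in adenoma and was higher there than in normal colon at every age. In WT N it was 80.0, 36.1 and 5.77 FPKM at 3, 4 and 5 months, and in KO N 58.1, 24.5 and 5.18 FPKM. In WT adenoma it reached 575, 606 and 904 FPKM at these ages, and in KO T 1106, 486 and 1704 FPKM. The lowest adenoma library stood above the highest normal library, with 17012 to 57720 reads in T and 109 to 1644 in N. On the scale of log2(FPKM + 1), T minus N was 2.83, 4.03 and 7.06 in WT and 4.23, 4.25 and 8.11 in KO at 3, 4 and 5 months.

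Lyz2 showed another pattern. It was 135, 218 and 94.8 FPKM in WT N, 367, 279 and 99.3 FPKM in KO N, 440, 699.8 and 387 FPKM in WT T and 623, 999 and 211 FPKM in KO T at 3, 4 and 5 months. N and T libraries of Lyz2 overlapped, though T minus N passed in WT (log2 difference 1.795, SE 0.34, limma adjusted p = 0.00375) and in KO (1.23, SE 0.34, limma adjusted p = 0.0252). The level of Lyz1 per length was 0.0522 to 0.591 of that of Lyz2 in N (median 0.123) and 0.486 to 8.07 times it in T (median 1.54). The ranges overlapped through the WT N library of 3 months and the KO T library of 4 months. Markers of the cells that express Lyz2 were also higher in T. Of 7 macrophage genes 4 were called higher in WT and 2 in KO, against 16.3% and 14.0% of all genes. After every library was rescaled to an equal sum, 7 and 4 were called higher. On that scale 9210 of the 15526 genes were called in WT and 7591 in KO, 87.5% and 84.4% of them higher. The summed level of the macrophage genes was 79.9 to 223 FPKM in N and 158 to 368 FPKM in T. Of 5 tested neutrophil genes of 7 listed, 4 were called higher in each genotype, against the same 16.3% and 14.0%; the list summed to 35.1 to 425 FPKM in N and 488 to 1157 FPKM in T, and its granule gene Elane was at 0 reads in all libraries but 1. The part of these cells in the Lyz1 level was not tested.

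Defa22 was low in normal colon. It was 5.57, 2.48 and 0.159 FPKM in WT N at 3, 4 and 5 months, which is 38, 20 and 1 reads, and 2.22, 3.36 and 0.418 FPKM in KO N (18, 25 and 3 reads). In WT T it was 41.5, 70.9 and 95.5 FPKM, and in KO T 37.4, 127.6 and 243 FPKM. The groups did not overlap, and T minus N on the log2(FPKM + 1) scale was 2.69, 4.37 and 6.38 in WT and 3.58, 4.88 and 7.43 in KO. The ratio of Defa22 to Defa21 in T was 1.44 to 2.44 per length, and the reads of Defa21 in T were 140 to 1887, against 342 to 2732 of Defa22.

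Itln1 differed least from library to library within adenoma. It was 140.3, 119 and 127 FPKM in WT T and 169, 121 and 83.5 FPKM in KO T at 3, 4 and 5 months. In N it was 42.1, 17.1 and 6.15 FPKM in WT and 38.1, 17.0 and 1.89 FPKM in KO. No N library reached the level of a T library, and T minus N was 1.71, 2.73 and 4.16 in WT and 2.12, 2.76 and 4.87 in KO (log2(FPKM + 1)).

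Mptx2 was low in normal colon and moderate in adenoma. It was 9.52, 3.79 and 0.421 FPKM in WT N (123, 58 and 5 reads) and 4.10, 1.56 and 0.147 FPKM in KO N (63, 22 and 2 reads) at 3, 4 and 5 months. In WT T it was 60.0, 14.7 and 16.2 FPKM, and in KO T 13.5, 28.8 and 23.0 FPKM. The WT T library of 3 months was the highest, and the N and T libraries did not overlap.

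Mptx1 went its own way. In normal colon of 3 months the WT library held 3172 FPKM (41226 reads) and the KO library 23965 FPKM (370972 reads); in the latter it took 1.75% of all reads in genes and ranked number 2 by FPKM. The normal libraries of 4 months had 35.3 FPKM (WT) and 8.45 FPKM (KO), and those of 5 months 1.17 FPKM (14 reads) and 0.146 FPKM (2 reads). In T it was 3.13, 10.2 and 12 FPKM in WT and 28.8, 14.0 and 36.9 FPKM in KO at 3, 4 and 5 months. The 2 normal libraries of 3 months thus stood far above the other 10, and those of 5 months below every adenoma library. T minus N was -9.59, -1.70 and 2.58 in WT and -9.65, 0.66 and 5.05 in KO (log2(FPKM + 1)). The ratio of Mptx1 to Mptx2 per length was 333 in WT N and 5852 in KO N at 3 months, 9.32 and 5.42 at 4 months and 2.78 and 0.994 at 5 months, against 0.0521 to 2.12 in T. The high Mptx1 counts of 3 months were not matched in Mptx2.

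**Figure D1:**
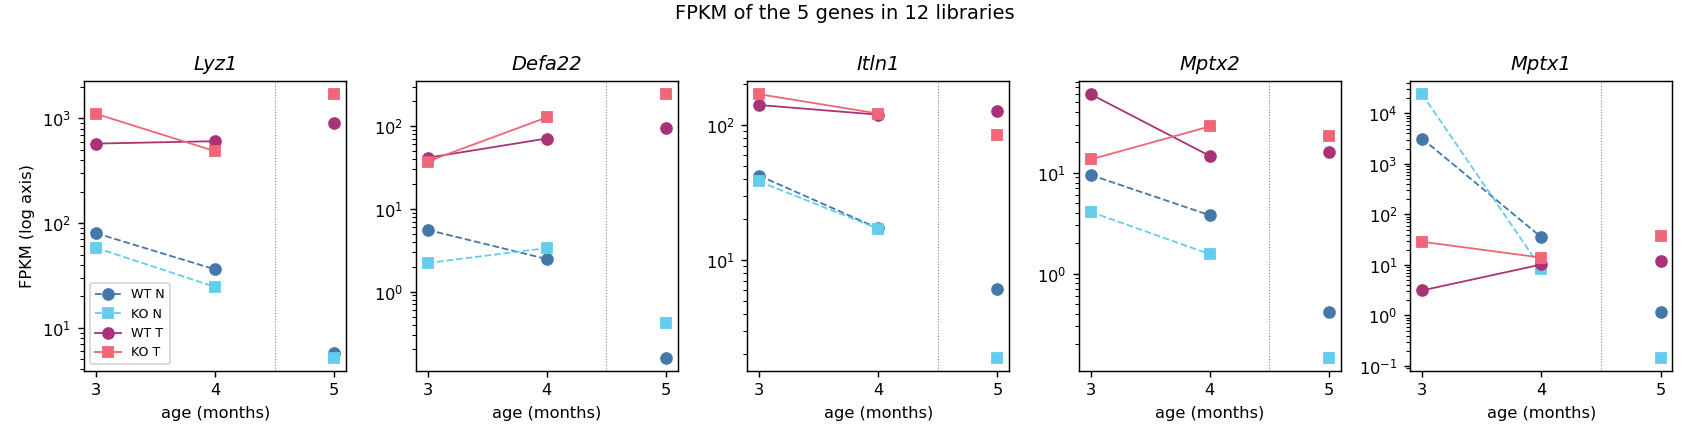
FPKM (log axis) of Lyz1, Defa22, Itln1, Mptx2 and Mptx1 against age in months, 1 point per library; a line joins 3 and 4 months, and the dotted line parts the 2 tables, which are on separate scales. Adenoma points (T) lie above all normal points (N) for the first 4 genes, while Mptx1 reaches 23965 FPKM in KO N at 3 months and 0.146 FPKM at 5 months.

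Across the 5 genes, 4 had their lowest T library above their highest N library, as did 1861 (12%) of the 15526 genes tested. These are the genes' own selection values, and the count supports nothing further. The same 4 stood apart after every library was rescaled to an equal sum (TPM), a scaling that moved the median T minus N of all genes from 0.01 to 0.76 in WT and from 0.02 to 0.57 in KO. The mean T minus N over the ages was 4.64 in WT and 5.53 in KO for Lyz1, 4.48 and 5.30 for Defa22, 2.87 and 3.25 for Itln1, 2.62 and 3.15 for Mptx2, and -2.90 and -1.31 for Mptx1. Without the libraries of 3 months, the Mptx1 value was 0.44 in WT and 2.86 in KO, so its direction rests on those libraries. T minus N was larger at 5 than at 3 months in all 5 genes and both genotypes. The N libraries of 5 months (WT and KO) held only 1 and 3 reads of Defa22, 5 and 2 of Mptx2 and 14 and 2 of Mptx1. Age was part of how the genes were chosen and no share over all genes was taken, so this count supports nothing further. In T the order of levels per length was Lyz1 (486 to 1704 FPKM), Itln1 (83.5 to 169), Defa22 (37.4 to 243), Mptx2 (13.5 to 60.0) and Mptx1 (3.13 to 36.9). Lyz1 did not overlap with Itln1, and each of the later neighbors overlapped with the gene before it.

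**Figure D2:**
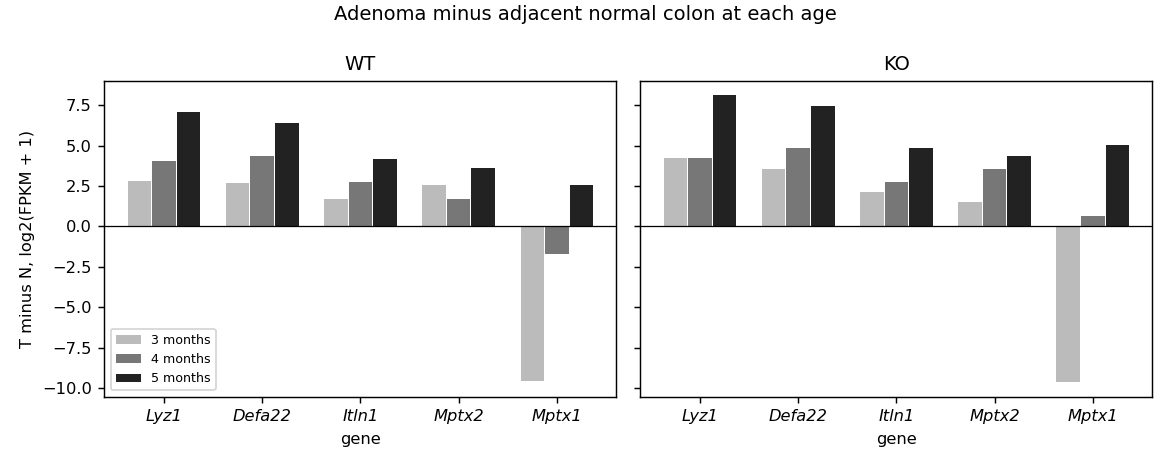
Difference between adenoma and normal colon, T minus N in log2(FPKM + 1), for each gene at 3, 4 and 5 months in WT (left) and KO (right); each bar compares 1 library with 1 library. The bars of Lyz1 run from 2.83 to 8.11, and those of Mptx1 turn from -9.59 and -9.65 at 3 months to 2.58 and 5.05 at 5 months.

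Levels in the normal libraries were lower at later ages for most of the 5 genes. Rescaling to equal sums removes the separate scales of the tables, but no other difference between them. On that scale Lyz1 in N was 127 TPM in WT and 107 TPM in KO at 3 months. At 5 months it was 8.67 and 10.2 TPM. Itln1 was 66.9 and 69.9 TPM at 3 months and 9.24 and 3.73 TPM at 5 months. Mptx2 was 15.1 and 7.51 TPM at 3 months and 0.632 and 0.290 TPM at 5 months, and Mptx1 5040.1 and 43957 TPM against 1.76 and 0.288 TPM. In N, 4 of the 5 genes were lower at each later age in both genotypes, against 9.38% of all genes; the exception was Defa22, which in KO N was 2.22 FPKM at 3 months and 3.36 FPKM at 4 months. Age was part of how the genes were chosen, so this count supports nothing further. With 1 library per genotype, tissue and age, age cannot be told apart from the piece of colon sampled.

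The tested alpha-defensin genes other than Defa22 were also higher in adenoma. Of 48 relatives listed, 25 were in the tables and 15 passed the filter on mean FPKM. Those 15 rose in WT and the same 15 in KO (limma adjusted p under 0.05), where 16.3% and 14.0% of all genes rose. The same 15 rose in each genotype after rescaling to equal sums. On that scale 9210 of the 15526 genes were called in WT and 7591 in KO, 87.5% and 84.4% of them higher. The filter keeps genes that are high in 1 tissue, so the 15 are no count over the family and support nothing. The other 10 were at most 2.06 FPKM in any library. That highest value was AY761184 in a WT N library, and AY761184 was at most 0.214 FPKM in T. Defa24 was the most abundant, at 3.83 to 56.8 FPKM in N and 325 to 660.0 FPKM in T, with T minus N of 4.06 (WT) and 5.06 (KO), each with an SE of 0.77 and limma adjusted p of 0.00366 and 0.00153. Defa20 rose by 3.75 and 4.78, Defa30 by 3.46 and 4.56, and Defa2 by 3.92 and 4.77. Defa35 had 0 FPKM in all 6 N libraries and 1.26 to 4.97 FPKM in T.

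A sum over the family does not depend on which relative a shared read was given to, though reads left out or counted more than once would still affect it. The sum took in 40 rows: Defa22, the 25 relatives above and the remaining rows with a Defa symbol, such as pseudogenes. The family took 40 to 635 reads in N (a CPM, that is a count scaled to library size, of 1.92 to 31.3) and 5550 to 19022 reads in T (CPM 304 to 898). The CPM of the family in T was 349, 326 and 511 in WT and 304, 498 and 898 in KO at 3, 4 and 5 months. Defa24 held 39.0% to 55.5% of the family's reads in T and Defa22 6.16% to 14.4%. Genes with at least 3 reads numbered 3 to 14 in N and 18 to 22 in T.

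**Figure D3:**
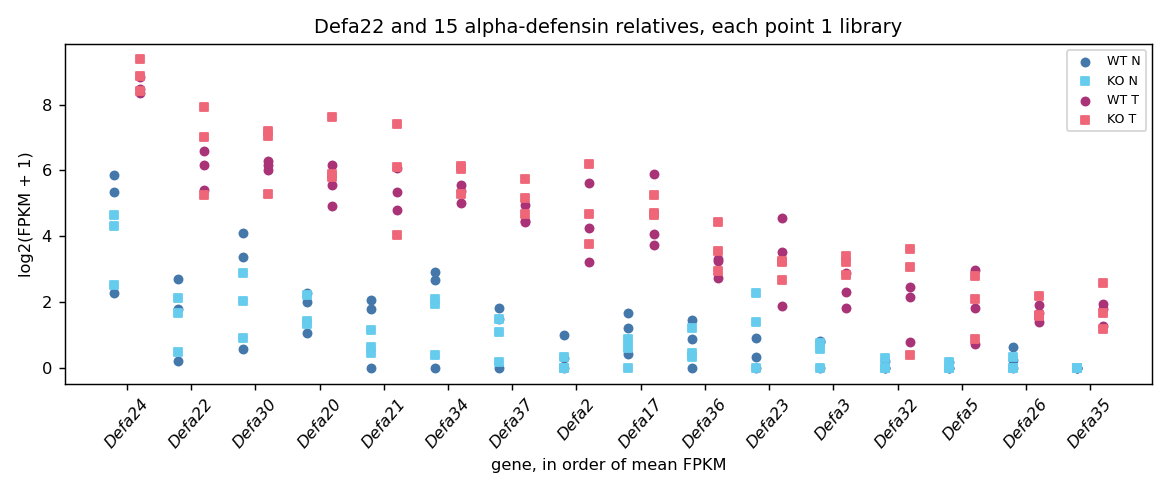
Level in log2(FPKM + 1) of Defa22 and its 15 tested relatives, 1 point per library, N left and T right of each gene's mark, in order of mean FPKM. Defa24 is the highest, at 325 to 660.0 FPKM in T, and Defa35 is at 0 in every N library.

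Other Paneth cell genes did not move as 1 block. Of 28 listed genes, 26 were tested; in WT 9 rose and 9 fell, against 16.3% and 19.9% of all genes, and in KO 8 rose and 10 fell, against 14.0% and 16.0% (limma). The list was written with earlier results of these data known. After rescaling to equal sums, 12 were called higher and 5 lower in WT, and 10 higher and 7 lower in KO. The balance of the directions thus depends on the scaling, as it did over all genes. Of the 15526 genes, 9210 were called in WT and 7591 in KO after rescaling, 87.5% and 84.4% of them higher. As deposited, 45.0% and 46.6% of the called genes were higher.

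Granule and secreted products divided. Mmp7, the protease that activates alpha-defensins, was 13.1 to 77.3 FPKM in N and 405 to 984 FPKM in T, and rose by 3.85 in WT and 4.29 in KO (limma adjusted p = 0.000167 and 0.000136). Pla2g2a, a gene of the secreted phospholipase family, rose by 3.11 and 2.89, and Slc30a2, a zinc transporter of the granules, by 4.05 and 4.61. The lipase gene Pnliprp2 rose by 3.39 and 3.95, and Habp2, a secreted protease gene, by 2.81 and 2.94. The bactericidal lectin genes went the other way: Reg3b had differences of -7.17 (WT) and -6.21 (KO), and Reg3g of -4.25 and -3.68, all of which passed (limma adjusted p = 0.00388, 0.00924, 0.0238 and 0.0487). After rescaling to equal sums Reg3g in KO did not pass (-3.05, limma adjusted p = 0.0569). Reg3a fell by 1.76 in KO and had a difference of -1.14 in WT. Neither Ang4, the gene of an antimicrobial angiogenin, with differences of -1.81 and 1.04, nor Clps, the colipase gene, with -0.60 and 0.14, passed.

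Among 10 regulators, those called higher numbered 3 (WT) and 2 (KO), against 16.3% and 14.0% of all genes, and those called lower 5 and 6, against 19.9% and 16.0%. After rescaling to equal sums they numbered 4 and 2 higher and 2 and 4 lower. On that scale 9210 of the 15526 genes were called in WT and 7591 in KO, 87.5% and 84.4% of them higher. Atoh1, the transcription factor of all secretory lineages, had differences of -2.89 (WT) and -3.06 (KO), both of which passed (limma adjusted p = 0.000227 and 0.000217). Gfi1, which acts after Atoh1, fell by 1.22 and fell by 1.36, Spib, a factor of Paneth and M cells, fell by 1.11 and fell by 1.52, and the receptor gene Fgfr3 fell by 1.02 and fell by 1.01. Tcf7l2, which encodes the TCF partner of beta-catenin, fell by 0.98 in each genotype as deposited. After rescaling to equal sums it was -0.23 and -0.46 and did not pass in either (limma adjusted p = 0.413 and 0.135), and in WT Spib (0.123) and Fgfr3 (0.0659) lost their calls as well. Xbp1, a factor of secretory cells, fell by 0.55 in KO and had a difference of -0.39 in WT; after rescaling to equal sums both values turned positive, 0.49 in WT (limma adjusted p = 0.031) and 0.09 in KO. By contrast Sox9, a Wnt target that Paneth cells need, rose by 0.79 and 0.84, and Ephb3, the receptor that keeps Paneth cells at the crypt base, by 1.10 and 1.13. Nod2, a sensor of bacterial cell wall, rose by 0.77 in WT and had a difference of 0.31 in KO, and Lrrk2 had 0.10 and -0.04. Among niche ligands, the Notch ligand gene Dll4 rose by 0.74 and 0.73, Dll1 fell by 0.76 in WT (limma adjusted p = 0.253 after rescaling) and had -0.67 in KO, and Tgfa had 0.35 and 0.55, which passed in both after rescaling. Wnt3 and Egf did not reach a mean of 0.5 FPKM; Wnt3 was 0.0190 to 0.120 FPKM in N and 0.492 to 1.09 FPKM in T. Among genes of colonic deep crypt secretory cells, which stand in for Paneth cells in the colon, Kit fell by 1.32 and fell by 1.39. Reg4 had differences of 2.59 and 1.41 and Cd24a of -0.32 and 0.23, none of which passed. After rescaling to equal sums, Reg4 passed in WT (3.49, limma adjusted p = 0.0173) and Cd24a in KO (0.88, limma adjusted p = 0.0352), and Cd24a and Clps in WT and Lrrk2 in KO took the opposite sign.

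Markers of neighboring cell types were checked beside these genes. Of the goblet cell markers, 8 of 8 were called lower in T in WT as in KO, against 19.9% and 16.0% of all genes, and they summed to 15725 to 25443 FPKM in N and 678 to 1528 FPKM in T, and all 7 Wnt target genes rose in both, against 16.3% and 14.0%. The 9 markers of small intestinal enterocytes summed to 23.1 to 120 FPKM in N and 1.61 to 8.33 FPKM in T. In T, the enterocyte gene Sis was at most 0.0150 FPKM; Lct was at most 0.0898 FPKM in T and 0.0365 FPKM in N, and was higher in T in 6 of 6 pairs. The part of these cell types in the levels of the 5 genes was not tested.

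The pattern of Mptx1 had few close matches. Likeness was measured as the root mean square difference of log2(FPKM + 1) over 12 libraries after each gene's mean within each table was taken off; libraries share their depth and tissue, so it is a description. The nearest genes were Ang4 (2.06), the gasdermin genes Gsdmcl2 (2.21) and Gsdmc4 (2.21), Des (2.27), which encodes the muscle filament protein desmin, and Insl5 (2.28), a hormone gene of colonic enteroendocrine cells. Mptx1 itself varied by 3.61 on that measure. In N of 3, 4 and 5 months Ang4 was 4722, 79.4 and 316 FPKM in WT and 7742, 44.7 and 2.64 FPKM in KO. Gsdmc4 was 1064, 204 and 26.0 FPKM in WT N and 2049, 216 and 29.8 FPKM in KO N, and Insl5 164, 16.3 and 28.5 FPKM and 342, 10.5 and 14.1 FPKM. Reg4 reached 886 FPKM in KO N of 3 months, against 93.7 FPKM in WT N of that age.

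Some other genes also stood apart in normal libraries of 3 months, not all of them in both genotypes. At 3 months Des had 17.1 FPKM in the WT and 103 FPKM in the KO normal library, against 1.88 to 4.24 FPKM in the other 4 N libraries. Des was also 24.6 FPKM in WT T of 5 months. The colonocyte gene Car1 was 324 FPKM in KO N of 3 months and 4160 to 19397 FPKM in the other 5 N libraries. Reg3b was 608 FPKM in KO N of 3 months against 5946 to 36608 FPKM in the others. Both Car1 and Reg3b thus stood apart in the KO library only, while Mptx1 was high in both genotypes. T below N at 3 months and above N at 5 months in both genotypes, each by at least 1 log2 unit, was found in 11 genes, 0.0708% of those tested. Besides Mptx1 and Gsdmcl2 these included the smooth muscle genes Des, Actg2 and Cnn1. The others were 9030619P08Rik, Atp12a, Ccl21a, Nt5e, Pcp4l1 and Tgm3. The part of muscle or other tissue in the Mptx1 level was not tested.

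**Figure D4:**
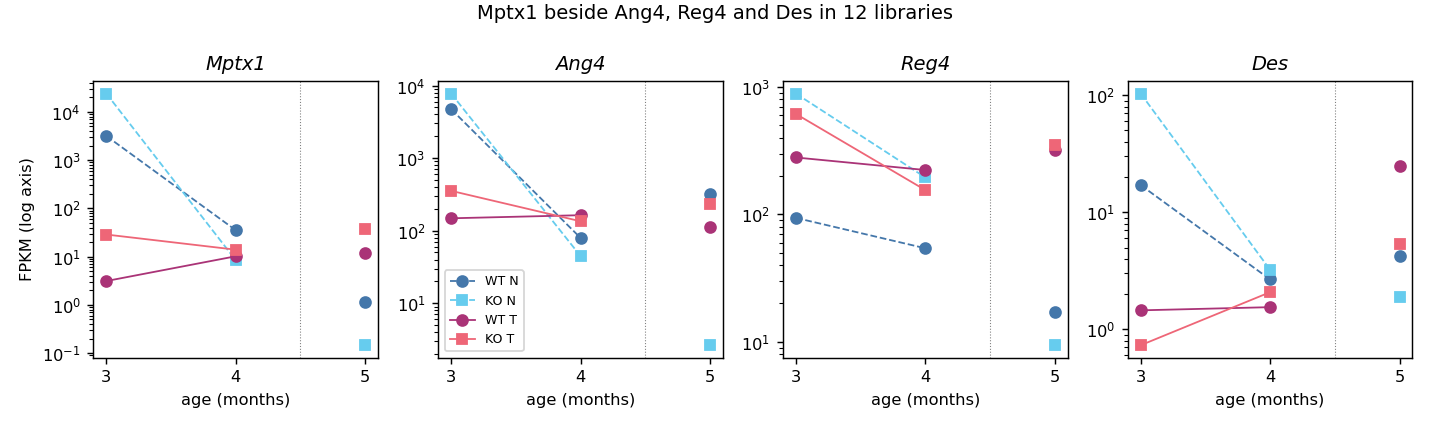
FPKM (log axis) of Mptx1, Ang4, Reg4 and Des against age in months, 1 point per library, drawn as in the plot of the 5 genes. In N of 3 months, WT and KO, Mptx1 reaches 3172 and 23965 FPKM, Ang4 4722 and 7742 FPKM and Des 17.1 and 103 FPKM, above their N levels of 4 and 5 months.

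The other 4 genes had closer neighbors on the same measure. For Defa22 they were Defa21 (0.34), Defa24 (0.46), the proteoglycan gene Spock2 (0.48), the Wnt inhibitor gene Wif1 (0.53) and Pnliprp1 (0.54), a pancreatic lipase relative. For Lyz1 they were Defa24 (0.60), the haptoglobin gene Hp (0.62), the metallothionein gene Mt4 (0.63), the metalloproteinase gene Mmp10 (0.64) and Pnliprp1 (0.64). Mptx2 was nearest to Sox17 (0.31), a transcription factor gene, Inhba (0.46), Htra1 (0.46), Halr1 (0.47) and Smpx (0.47). Itln1 was nearest to Fxyd6 (0.31), Igfbp4 (0.33), Wfdc18 (0.36), Htra1 (0.36) and Igfbp5 (0.39). Among the 5 genes, Mptx2 and Itln1 lay 0.67 apart and Lyz1 and Defa22 0.74, while Mptx1 lay 3.89 to 4.66 from each of the others.

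KO and WT were compared in each tissue to ask whether loss of epithelial Cul4b went with a change of these genes. The stated choice of the genes names age, and whether genotype was also in view is not known. By limma 0 of the 5 genes passed in T, in N or in the genotype by tissue interaction, 0 had an unadjusted p under 0.05 (0.245 to 0.995 over the 3 comparisons), and limma voom on recovered reads also gave 0 and 0. Over all 15526 genes tested 0.00644% were called in each tissue, which is Cul4b alone, and 0 genes for the interaction. An unadjusted p under 0.05 was found for 128, 228 and 183 genes in T, in N and for the interaction. Each of these is less than a share of 0.05 of the genes. The comparison called little of anything, so 0 of the 5 genes says little about them.

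In T the difference KO minus WT was 0.51 for Lyz1 (95% interval -1.46 to 2.49), 0.68 for Defa22 (-1.12 to 2.47), -0.10 for Itln1 (-1.40 to 1.19) and -0.22 for Mptx2 (-1.59 to 1.15), in log2(FPKM + 1). For Mptx1 it was 1.60 (-4.60 to 7.81). The fit gives each gene the same spread in T and in N (SE 2.74 for Mptx1 in both). The interval of Mptx1 in T therefore also carries its spread in N and does not measure the spread in adenoma alone. The limma adjusted p was 1 for each gene in T and in N. By age, Lyz1 in T differed by 0.94, -0.32 and 0.91 at 3, 4 and 5 months, Defa22 by -0.15, 0.84 and 1.34, and Mptx2 by -2.07, 0.93 and 0.48. Mptx1 was higher in KO T at 3 of 3 ages (2.85, 0.42 and 1.54), as were 13.4% of all genes; no other of the 5 was.

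In N the difference was -0.37 for Lyz1 (95% interval -2.35 to 1.60), -0.14 for Defa22 (-1.93 to 1.66), -0.48 for Itln1 (-1.78 to 0.81), -0.75 for Mptx2 (-2.12 to 0.61) and 0.02 for Mptx1 (-6.18 to 6.22). As deposited, 3 of the 5 genes (Lyz1, Itln1 and Mptx2) were lower in KO N at 3 of 3 ages, where 13.3% of all genes were. After rescaling to equal sums 1 of them was (Mptx2), against 4.80% of all genes. The Mptx1 value joins 2.92 at 3 months with -1.94 at 4 months and -0.92 at 5 months. For the interaction the values were 0.89 for Lyz1, 0.82 for Defa22, 0.38 for Itln1, 0.53 for Mptx2 and 1.59 for Mptx1 (limma adjusted p = 0.9996 for each). The intervals, which take in the spread of both tissues, leave room for changes of at least 1 log2 unit in each tissue. These libraries therefore do not show that the genotypes were alike.

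**Figure D5:**
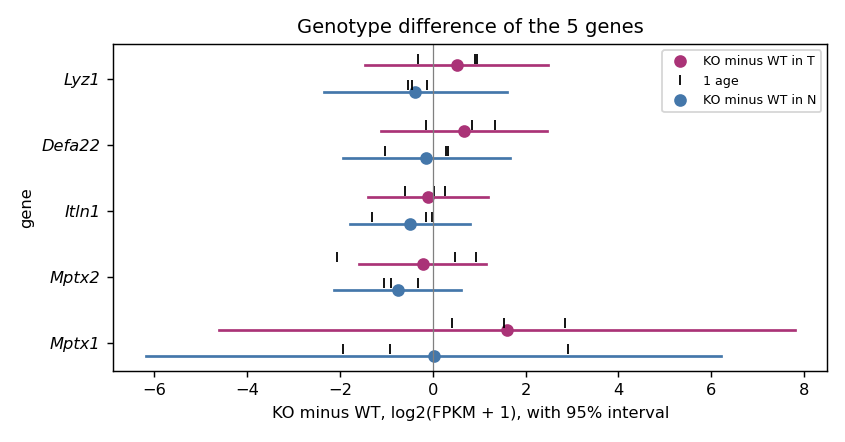
KO minus WT in log2(FPKM + 1) for each gene in T and N; dots are the limma estimates over 3 ages, lines their 95% intervals and black ticks the difference at 1 age. Every interval spans 0, and those of Mptx1 are the widest, from -6.18 to 6.22 in N and -4.60 to 7.81 in T. For each gene the fit uses the same spread in T and in N.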

How the data were processed

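RNA of 12 mouse colon libraries was sequenced. Values were deposited as FPKM, with 8 libraries (3 and 4 months) in 1 table and the other 4 (5 months) in another; a deposited gene length, in bases, is a unit of another kind (other) and was used to recover reads. The tools StringTie, featureCounts (1.5.0-p3) and DESeq2 and the build mm10 are named per the submitters' processing notes; an aligner is not given in the sources used here. Each FPKM multiplied by the length and divided by the worth of 1 read came out whole (within 0.01 of a read) for 100% of values, and these reads served as counts; 3 reads, about the limit of a count of 0, are 0.0524 to 0.100 FPKM at 2 kilobases, and such floors cover counting error only.

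Differences came from limma 3.58.1 in R 4.3.3 on log2(FPKM + 1), a scale that understates changes of low genes, with group and age as terms over 12 libraries (6 residual degrees of freedom), a filter on mean FPKM (0.5 or more) and Benjamini-Hochberg adjusted p under 0.05. The age term keeps each difference within a table. Libraries of the same age deviated from their group means with correlations of -0.0261 to 0.78 across groups (14 of 18 pairs above 0.1). The fit was tested on simulated data. Named were the 5 genes, listed relatives and Paneth genes that passed this filter, and the 5 genes of nearest pattern to each, without numbered Gm, Rik and immune receptor symbols. Other genes named beside Mptx1 and untested genes were chosen after their values were seen. The genes and lists were chosen with earlier results of these data known. A list of 2 intelectin relatives matched no row, 1 of 9 lysozyme relatives (Lyz2) and 0 of 7 pentraxin relatives were tested, and of 5 mesothelium genes Msln rose and Upk1b fell in both genotypes while Krt19 fell in WT. All 7 colonocyte genes fell in WT and 6 in KO, against 19.9% and 16.0% of all genes. After rescaling to equal sums 5 were called lower in each, and Krt19 lost its call in WT. On that scale 9210 of the 15526 genes were called in WT and 7591 in KO, 87.5% and 84.4% of them higher. All 5 genes had an entry in the RefSeq promoter table. Alternatives were other pseudocounts (0.1, 5), filters, TPM, voom on recovered reads with trimmed-mean scaling, other age terms, the 2 groups alone, and leaving out each library or age.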

Additional observations from a re-analysis of the deposited data

Results flagged for a closer look

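The difference of Mptx1 between adenoma and normal colon had opposite signs at 2 ages in both genotypes. In log2(FPKM + 1), T minus N was -9.59 in WT and -9.65 in KO at 3 months, and 2.58 in WT and 5.05 in KO at 5 months. Each value compares 1 library with 1 library, and the difference between ages was not tested.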

How the results depend on the processing

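The block was age, which pairs libraries by number and by table. With no replicate block, 3708 genes were called for T minus N in WT (5612 with it) and 2954 in KO (4651 with it), and 0 instead of 1 for KO minus WT in T; no call on the 5 genes changed. T minus N gave 3383 genes in WT and 2720 in KO at a mean FPKM of at least 5, and 9210 and 7591 after rescaling to equal sums. In KO it gave 6980 with an age term within each tissue and 1916 with the 2 groups alone. KO minus WT in T gave 0 with a pseudocount of 0.1, an age term within tissue or the 2 groups alone; in N it gave 3 without a filter and 0 with the 2 groups alone, and the interaction 1 without a filter. Leaving out a library or age gave 2461 to 5926 genes for T minus N in WT, 1997 to 4592 in KO, 0 to 1 for KO minus WT in T and 0 to 2 in N. The T minus N counts that moved by over 1.5 times were without all libraries of 5 months (WT) and without those of 4 or of 5 months (KO).

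The genotype values of the 5 genes kept their sign in 321 of 355 alternatives, none passed (limma adjusted p 0.888 to 1), and the cause of the 34 reversals was not tested. KO minus WT in N was 0.044 (pseudocount 0.1) and 0.013 (voom) for Defa22, and -0.50 (pseudocount 0.1) and -0.042 (equal sums) for Mptx1. Leaving out a library or age, KO minus WT in T ran from -0.45 to 1.21 for Lyz1, -0.22 to 1.54 for Defa22, -1.32 to 3.69 for Mptx1, -0.83 to 0.70 for Mptx2 and -0.60 to 0.55 for Itln1. In N it ran from -1.29 to 0.38 for Lyz1, -0.95 to 0.74 for Defa22, -3.45 to 2.31 for Mptx1 and -0.98 to 0.27 for Itln1. The interaction ran from -0.079 to 1.80 for Lyz1, -0.078 to 1.67 for Defa22, -1.33 to 5.06 for Mptx1, -0.12 to 1.43 for Mptx2 and -0.38 to 1.03 for Itln1. T minus N of Mptx1 ran from -5.64 to 0.44 in WT and -4.50 to 2.86 in KO. For the other 4 genes T minus N was 1.76 to 6.25 and kept its sign in all 192 alternatives run. Normal libraries with 1 to 38 reads of Defa22 limit its ratios.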
